A study of Mus musculus with 16 samples.

Results

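Neurotrophins are small secreted proteins that keep neurons alive and shape their synapses, and the transcripts of 7 genes of this signalling system were followed in the mouse hippocampus: Bdnf, Ntf3, Ntrk2, Ntrk3, Ngfr, Sort1 and Vgf. They were taken by gene name from the 55335 genes of the count table, and each name matched a single gene. The hippocampus was dissected from 16 female mice of 10 months, 4 in each of 4 groups, after 28 days of infusion into the brain ventricle through an osmotic pump. WT-D mice (strain label C57BL/6J x 129S1) and 3xTg-D mice (strain label B6;129-Psen1tm1MpmTg(APPSwe,tauP301L)1Lfa/Mmjax) received the vehicle, artificial cerebrospinal fluid with 0.8% DMSO. WT-S and 3xTg-S mice of the same strains received the stearoyl-CoA desaturase (SCD) inhibitor CAY10566 at 80 µM in the same vehicle, so that every mouse carried a pump and was exposed to DMSO. 3xTg mice are a model of Alzheimer's disease that carries the human APPSwe and tauP301L transgenes, both driven in neurons by the mouse Thy1.2 regulatory element, on a mutant presenilin-1 knock-in. The WT mice are a background strain and were not described as littermates. One protocol label gives another SCD inhibitor, ab142089, but the titles and treatment labels give the Cayman compound and were followed.

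BDNF is released by active neurons and binds the receptor kinase TrkB, encoded by Ntrk2, which strengthens synapses and supports memory in the hippocampus. NT-3, encoded by Ntf3, binds mainly TrkC, encoded by Ntrk3, and all neurotrophins bind the p75 receptor, encoded by Ngfr. Unprocessed neurotrophins bind p75 together with sortilin, encoded by Sort1, which also sorts BDNF into the regulated secretory pathway. Vgf encodes a neuropeptide precursor that is stored in dense core vesicles and induced by BDNF.

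Bdnf lay on chromosome 2 (GRCm38, 109674700 to 109727007, plus strand) with 11 annotated transcripts, and Ntf3 on chromosome 6 (126101412 to 126166910, minus strand) with 3. Ntrk2 lay on chromosome 13 (58806569 to 59133970, plus strand) and Ntrk3 on chromosome 7 (78175959 to 78738012, minus strand), with 10 and 20 transcripts. Ngfr lay on chromosome 11 (95568818 to 95587735, minus strand), Sort1 on chromosome 3 (108284082 to 108361511, plus strand) and Vgf on chromosome 5 (137026392 to 137033351, plus strand). Counts were summed over all exons of a gene, so transcripts that start at different promoters, and the full-length and kinase-lacking forms of TrkB and TrkC, could not be told apart. The antisense gene Gm45346 shares 896 exonic bases with Bdnf and held 87 counts over all 16 mice, beside 20457 for Bdnf. Gm12523 shares 338 exonic bases with Sort1 and held 29 counts, beside 204924 for Sort1. The antisense gene Gm9885 lies within Ntrk3, shares no exonic base with it and held 1078 counts, beside 60937 for Ntrk3. As the strand setting of the counting is not given in the sources used here, the values of Bdnf and Sort1 may hold a small share of antisense reads.

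The promoters of Bdnf are shown because activity-dependent transcription of this gene is known to act through CREB, which binds the cAMP response element TGACGTCA and related elements. RefSeq promoter windows of 300 bases (GRCm38.p6, 250 bases before to 50 after a transcript start) were at hand for 4 of the 7 genes, with 7 windows for Bdnf, 2 for Ntf3, 1 for Ntrk2 and 1 for Ngfr. Each was searched on both strands for TGACGTCA and for the related 8-letter element TCACGTNA, and the matches did not overlap. TGACGTCA was in none of these 11 windows, which says only that these letters are not there. TCACGTNA was in 2 of the 7 Bdnf windows and in none of the other 4. Of all 32544 distinct windows of this length, 1.80% held TGACGTCA and 1.75% held TCACGTNA. Enrichment was not tested, and how TCACGTNA was chosen is not stated, so the matches in Bdnf are only a description. The 250 bases upstream of the transcript start in the 2 matching Bdnf windows, both on the plus strand, are given 5′ to 3′ with the match in capitals. The first lies upstream of the most 5′ Bdnf transcript, and its match starts 78 bases before the transcript start, whereas the match in the second starts 38 bases before it.
Bdnf, chr2:109674450-109674699: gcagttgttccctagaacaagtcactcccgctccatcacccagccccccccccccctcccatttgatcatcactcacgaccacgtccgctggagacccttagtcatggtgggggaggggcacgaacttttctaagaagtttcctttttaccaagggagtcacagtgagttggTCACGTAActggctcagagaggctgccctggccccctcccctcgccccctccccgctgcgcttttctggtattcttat
Bdnf, chr2:109692186-109692435: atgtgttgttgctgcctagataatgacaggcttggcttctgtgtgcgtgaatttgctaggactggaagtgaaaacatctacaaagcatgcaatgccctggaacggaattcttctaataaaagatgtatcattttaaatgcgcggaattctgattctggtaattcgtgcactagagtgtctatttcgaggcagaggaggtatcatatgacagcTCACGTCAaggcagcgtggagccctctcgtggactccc
The counts per gene do not say which of these promoters was in use in any mouse, and a match in sequence is a description of the window.

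Between 15413385 and 23590149 reads per mouse fell on annotated genes, and the share of uniquely aligned reads that fell on no annotated gene ranged from 7.82% to 15.1%. Values are given as CPM, read counts scaled to a common library size, normalized between mice by the TMM method. Of the 33942 genes with a count, 16475 passed the filter on low counts, among them all 7 genes described here. Thy1, whose regulatory element drives the transgenes, was at 517 to 625 CPM in the 8 WT mice and at 1566 to 2141 CPM in the 8 3xTg mice, so every mouse matched its genotype label. The hippocampal markers Prox1, C1ql2, Wfs1, Fibcd1, Neurod6 and Zbtb20 were each at 14.3 CPM or more in every mouse, with 283 CPM or more for Neurod6. Choroid plexus transcripts set WT-D mouse 4 and WT-S mouse 1 apart, with summed marker levels of 1376 and 668 CPM beside 166 CPM in the lowest mouse, and the calls that rest on them are also given without them.

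The 7 transcripts spanned a wide range of abundance per kilobase of merged exon (RPKM, computed from the normalized CPM). Sort1 was the most abundant at 86.3 ± 5.43 RPKM (SD, n = 16 mice), followed by Ntrk2 at 34.6 ± 1.02 and Vgf at 28.3 ± 4.69 RPKM. The neurotrophin Bdnf followed at 10.4 ± 1.65 RPKM, the receptor Ntrk3 at 6.50 ± 1.31 RPKM and the neurotrophin Ntf3 at 3.75 ± 0.552 RPKM. Ngfr was lowest at 0.357 ± 0.0674 RPKM, which rested on 10 to 35 counts per mouse. Both receptor kinases were thus measured from at least 3152 counts per mouse, whereas p75 rested on few reads. Sort1 did not overlap with Ntrk2 in any mouse, nor did Vgf with Bdnf or Ntf3 with Ngfr. Ntrk2 and Vgf overlapped across mice (33.0 to 36.2 and 21.01 to 38.6 RPKM), as did Bdnf and Ntrk3 (7.57 to 13.03 and 4.79 to 10.3 RPKM), and Ntrk3 and Ntf3 touched, with a highest Ntf3 level of 4.83 RPKM. With the length of the longest transcript in place of merged exons, the order was the same, but Ntrk2 rose to 76.4 RPKM. It was then separate from Vgf, whose highest mouse was at 40.5 RPKM, and overlapped with Sort1 (72.9 to 79.9 and 79.5 to 107 RPKM), while Ntrk3 and Ntf3 no longer touched.

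**Figure D1:**
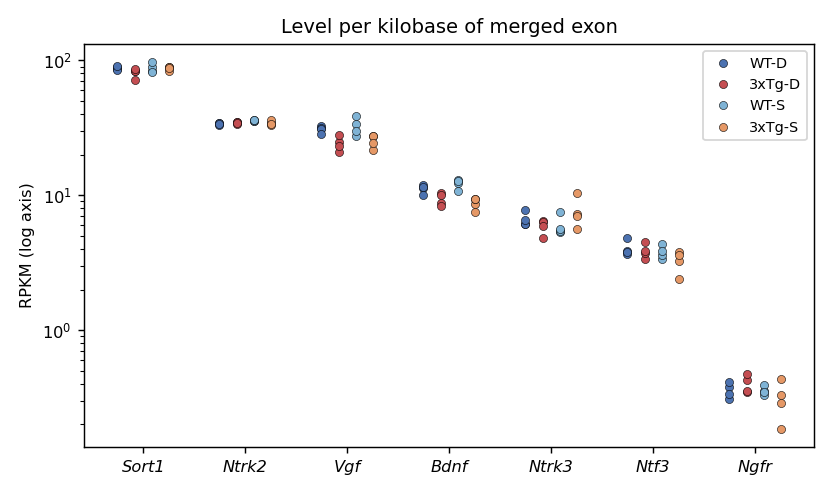
Level of the 7 genes per kilobase of merged exon (y axis, RPKM, log axis), each point a mouse, 4 mice in each of the 4 groups (colours). Sort1 sits highest at 86.3 RPKM on average and Ngfr lowest at 0.357 RPKM, while Ntrk2 and Vgf, and Bdnf and Ntrk3, overlap.

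Variation between mice of the same group also differed between the genes. The coefficient of variation within groups, pooled over the 4 groups, was 2.22% for Ntrk2 and 6.02% for Sort1. It was 8.84% for Bdnf, 11.8% for Vgf, 14.3% for Ntf3, 18.0% for Ntrk3 and 19.7% for Ngfr. The high value of Ngfr went with its low counts, whereas Ntrk3 varied as much with 3152 to 5764 counts per mouse.

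Expression of Bdnf was lower in 3xTg mice than in WT mice. In the vehicle groups, the 4 WT-D mice had 73.7, 70.2, 63.0 and 71.3 CPM of Bdnf, and the 4 3xTg-D mice had 64.6, 54.3, 62.7 and 52.1 CPM. The groups touched, since the highest 3xTg-D mouse lay above the lowest WT-D mouse. Under the inhibitor, the WT-S mice had 81.0, 77.1, 78.8 and 67.4 CPM and the 3xTg-S mice 53.4, 58.1, 58.5 and 47.1 CPM. Here all 4 3xTg-S mice were below all 4 WT-S mice, and also below all 4 WT-D mice.

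**Figure D2:**
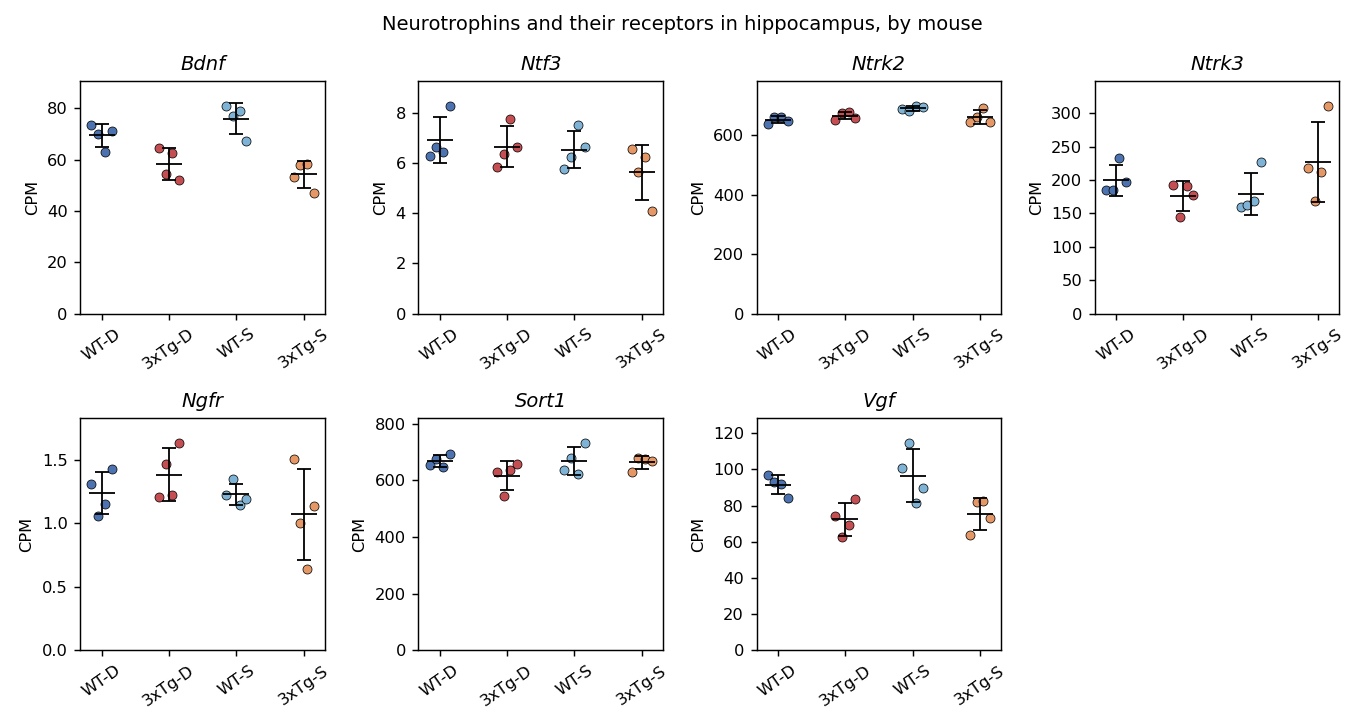
CPM (y axis, from 0) of the 7 genes in each mouse, with 4 mice per group (x axis), the group mean as a horizontal bar and the SD as whiskers. Bdnf and Vgf lie lower in the 3xTg groups, with Bdnf at 47.1 to 58.5 CPM in 3xTg-S and at 67.4 to 81.0 CPM in WT-S mice, whereas Ntrk2 stays between 637 and 699 CPM.

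Whether the 3xTg genotype altered these genes was asked first in the vehicle groups, and genes were called differentially expressed (DEGs) where the unadjusted p was no more than 0.01, as the study did. Of the 7, 1 gene, Vgf, was called in 3xTg-D vs. WT-D, and it was lower. In this comparison 4.91% of all tested genes were called, 2.47% as lower. Vgf was at 97.0, 93.2, 92.0 and 84.3 CPM in WT-D mice and at 74.1, 62.5, 69.1 and 83.8 CPM in 3xTg-D mice. The groups did not overlap, but 3xTg-D mouse 4 was within 1 CPM of the lowest WT-D mouse. Mean Vgf fell from 91.6 to 72.4 CPM, a log2 fold change of -0.34 (95% interval -0.53 to -0.15), which did not pass adjustment over all genes (adjusted p = 0.0874). Bdnf had a mean of 58.4 ± 6.13 CPM (SD, n = 4) in the 3xTg-D and 69.5 ± 4.59 CPM in the WT-D group. Its log2 fold change was -0.25 (95% interval -0.43 to -0.07), and it was not called, lying just outside the threshold (adjusted p = 0.209). Bdnf was inside it with DESeq2 (log2 fold change -0.26, adjusted p = 0.111), with median-ratio size factors and with either other filter on low counts. It was also inside without WT-D mouse 3, 3xTg-D mouse 1 or 3xTg-D mouse 3 (-0.30, -0.30 and -0.29). Bdnf stayed outside with all 16 mice in 1 fit and with a block for the replicate number (both -0.25). The same held with the share of reads outside genes (-0.24) or the choroid plexus score (-0.23) as covariate. It also stayed outside without any 1 of the other mice (-0.25 to -0.21). The other 5 genes had log2 fold changes from -0.18 (Ntrk3) to 0.16 (Ngfr), and none was called. Over all 7 genes the median log2 fold change was -0.11, beside 0.00 over all tested genes.

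Bdnf and Vgf were both called in 3xTg-S vs. WT-D, where the inhibitor-treated 3xTg mice were set against the vehicle-infused WT mice. Called as lower were 2 of the 7 genes, beside 5.69% of all tested genes called in either direction and 3.43% called as lower. Mean Bdnf fell from 69.5 to 54.3 CPM, a log2 fold change of -0.38 (95% interval -0.56 to -0.19, adjusted p = 0.0562). Vgf, at 64.0, 82.1, 82.5 and 72.9 CPM in the 3xTg-S mice, fell by 18.8% (log2 fold change -0.30, 95% interval -0.50 to -0.10, adjusted p = 0.140). All 3xTg-S mice were below all WT-D mice for this gene too, with a highest value of 82.5 CPM against a lowest of 84.3 CPM. The call of Vgf was lost without WT-D mouse 1, 2 or 3 or without 3xTg-S mouse 1 or 4 (log2 fold changes of -0.30 to -0.23) and with all 16 mice in 1 fit (-0.28), and that of Bdnf was lost with the choroid plexus score as covariate (-0.34, adjusted p = 0.277). Both 3xTg groups were compared with the same WT-D mice, so the 2 sets of values are not independent.

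The comparison of 3xTg-S vs. WT-S, with the inhibitor in both groups, called 1 of the 7 genes, Bdnf, as lower. Here 4.26% of all tested genes were called, 2.47% as lower. Bdnf had a mean of 54.3 ± 5.33 CPM (SD, n = 4) in 3xTg-S and 76.1 ± 6.00 CPM in WT-S mice, and it fell by 29.4%. Its log2 fold change of -0.50 (95% interval -0.71 to -0.30) passed adjustment, with an adjusted p of 0.0243, as 1.4% of all tested genes did. Leaving out each mouse in turn gave log2 fold changes of -0.56 to -0.44, all of them called, with adjusted p of 0.0107 to 0.0920. The adjusted threshold was passed without WT-S mouse 4 or 3xTg-S mouse 2 and missed without any of the other 6 mice, WT-S mouse 1 among them (-0.47, adjusted p = 0.0920). It was also missed with the choroid plexus score as covariate (-0.44, adjusted p = 0.104). Vgf was at 101, 115, 81.2 and 89.5 CPM in WT-S mice, and the groups overlapped. Its log2 fold change was -0.37 (95% interval -0.64 to -0.11, adjusted p = 0.242), just outside the threshold. It was inside with DESeq2 (-0.37), with all 16 mice in 1 fit (-0.36), with the replicate block and with either other filter on low counts. Vgf stayed outside with median-ratio size factors, and with the share of reads outside genes (-0.31) or the choroid plexus score (-0.33) as covariate. With each of the 8 mice left out in turn, 3 fits called it.

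The genotype difference was then averaged over both infusions in 1 fit of all 16 mice, a comparison added after the pairwise values were seen, which uses the same mice again. Bdnf and Vgf were called, both lower, beside 7.93% of all tested genes called and 4.04% called as lower. Both also passed at an adjusted p of 0.05 or less, as 4.97% of all tested genes did. For Bdnf, the means were 56.3 CPM over the 8 3xTg and 72.8 CPM over the 8 WT mice, a log2 fold change of -0.37 (95% interval -0.50 to -0.24, adjusted p = 0.00116). For Vgf they were 73.9 and 94.1 CPM, a log2 fold change of -0.35 (95% interval -0.51 to -0.19, adjusted p = 0.0117). Without the 2 mice with the most choroid plexus transcripts, WT-D mouse 4 and WT-S mouse 1, the averaged differences were -0.36 for Bdnf and -0.37 for Vgf, with adjusted p of 0.0083 and 0.0274. In the pairwise comparisons, leaving out WT-D mouse 4 gave -0.39 for Vgf in 3xTg-D vs. WT-D (adjusted p = 0.0904), and -0.37 for Bdnf and -0.34 for Vgf in 3xTg-S vs. WT-D (adjusted p = 0.125 and 0.148), all still called. Bdnf in 3xTg-D vs. WT-D was -0.25 without that mouse and stayed outside the threshold. No receptor was called, and the log2 fold changes were -0.02 for Ntrk2 (95% interval -0.08 to 0.05), 0.08 for Ntrk3 (-0.15 to 0.32) and -0.02 for Ngfr (-0.34 to 0.31). The interval of Ntrk2 covers changes of a few percent in either direction, whereas those of Ntrk3 and Ngfr are wide. Sort1 (-0.06, 95% interval -0.16 to 0.04) and Ntf3 (-0.14, 95% interval -0.36 to 0.08) were not called.

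**Figure D3:**
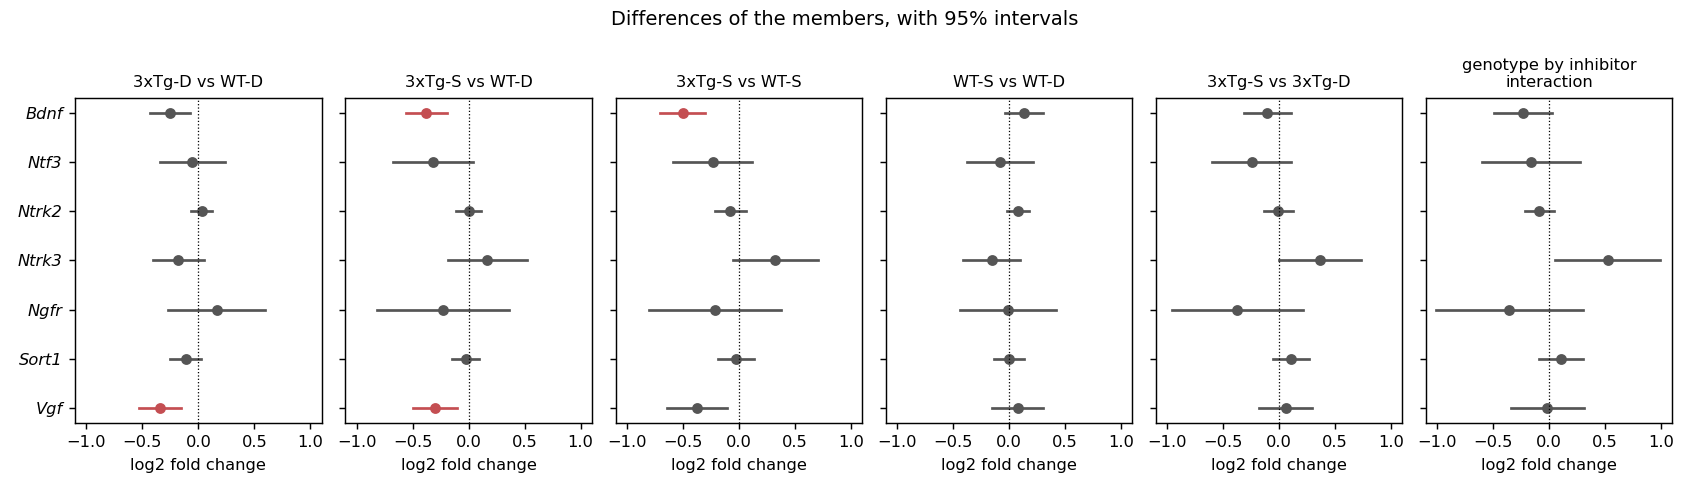
Log2 fold change (x axis) of the 7 genes in the 5 pairwise comparisons and in the genotype by inhibitor interaction, with 95% intervals as lines and genes called at p of 0.01 or less in red. Only Vgf (in 3xTg-D vs. WT-D and 3xTg-S vs. WT-D) and Bdnf (in 3xTg-S vs. WT-D and 3xTg-S vs. WT-S) are red, all to the left of 0.

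In bulk tissue, fewer cells of a type and less RNA per cell cannot be told apart. Bdnf is made mainly by excitatory neurons, including the granule cells of the dentate gyrus, and the granule cell marker C1ql2 was lower in 3xTg mice as well (log2 fold change -1.01 in 3xTg-D vs. WT-D, adjusted p = 0.0023, and -1.27 in 3xTg-S vs. WT-S, adjusted p = 0.0040). With edgeR it was the only 1 of the 6 hippocampal neuron markers called in either comparison, whereas DESeq2 called 2 of the 6 in 3xTg-D vs. WT-D and 1 in 3xTg-S vs. WT-S. Over all tested genes, edgeR called 4.91% in 3xTg-D vs. WT-D and 4.26% in 3xTg-S vs. WT-S. At an unadjusted p under 0.05 there were 3 and 1 of the 6 with edgeR and 4 and 1 with DESeq2. Prox1, another granule cell gene, was not called by edgeR. The summed level of the 6 markers was 988 to 1040 CPM in WT-D, 783 to 986 CPM in 3xTg-D, 934 to 1114 CPM in WT-S and 911 to 1141 CPM in 3xTg-S mice. The oligodendrocyte marker Mbp, a myelin gene, rose in 3xTg-D compared with WT-D mice (log2 fold change 0.49, adjusted p = 0.0214). The part of either in the lower Bdnf and Vgf values was not tested.

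The inhibitor itself was compared with the vehicle within each genotype, which asks whether SCD inhibition moved the neurotrophin system at all. Of the 7 genes, edgeR called 0 in WT-S vs. WT-D, where 0.188% of all tested genes were called, and 0 had an unadjusted p under 0.05. DESeq2 also called 0, and gave 1 gene, Ntrk2, an unadjusted p under 0.05. Bdnf was at 76.1 CPM in WT-S and 69.5 CPM in WT-D mice, a log2 fold change of 0.13 (95% interval -0.04 to 0.30). Ntrk2 was at 688, 682, 699 and 696 CPM in the WT-S mice and at 637, 663, 663 and 648 CPM in the WT-D mice. Although the groups did not overlap, the log2 fold change was 0.08 (95% interval -0.02 to 0.18), and edgeR did not call it. The share of all tested genes without overlap between these groups is not given. Vgf had a log2 fold change of 0.08 (95% interval -0.15 to 0.30), Ntrk3 of -0.16 (-0.41 to 0.10), Ntf3 of -0.08 (-0.37 to 0.21), Ngfr of -0.01 (-0.44 to 0.42) and Sort1 of 0.00 (-0.13 to 0.13).

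In 3xTg-S vs. 3xTg-D, edgeR called 0 of the 7 genes, beside 0.904% of all tested genes, and 0 had an unadjusted p under 0.05. DESeq2 called 0 as well, with 1 gene, Ntrk3, at an unadjusted p under 0.05. Bdnf was at 54.3 CPM with and 58.4 CPM without the inhibitor, a log2 fold change of -0.11 (95% interval -0.32 to 0.10, adjusted p = 0.762). Vgf was at 75.4 and 72.4 CPM, a log2 fold change of 0.06 (95% interval -0.18 to 0.30, adjusted p = 0.876). For both genes the difference between treated and vehicle-infused 3xTg mice was smaller than the SD between mice of either group, and the intervals leave room for moderate changes in both directions. Ntf3 was at 6.54, 5.63, 6.23 and 4.10 CPM in the 3xTg-S mice and at 5.82, 6.38, 7.75 and 6.65 CPM in the 3xTg-D mice (log2 fold change -0.25, 95% interval -0.60 to 0.11). Ngfr was at 1.504, 1.00, 0.642 and 1.13 CPM and at 1.21, 1.47, 1.22 and 1.64 CPM (log2 fold change -0.37, 95% interval -0.96 to 0.22). These 2 low genes overlapped between the groups, and their intervals span large changes.

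The interaction of genotype and inhibitor, fitted to all 16 mice, asks whether the inhibitor acted differently in the genotypes. edgeR and DESeq2 each called 0 of the 7 genes, beside 0.595% of all tested genes with edgeR, and Ntrk3 had an unadjusted p under 0.05 in both, with Ntrk2 beside it in DESeq2. The difference between the inhibitor effects in 3xTg and WT mice was -0.24 on the log2 scale for Bdnf (95% interval -0.50 to 0.03, adjusted p = 0.788) and -0.02 for Vgf (95% interval -0.35 to 0.31, adjusted p = 0.982). The larger genotype difference of Bdnf under the inhibitor than under the vehicle (-0.50 and -0.25) was thus not shown to differ. For Ntrk3 the difference was 0.52 (95% interval 0.05 to 0.99, adjusted p = 0.788).

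Ntrk3 varied with a property of the libraries. The TrkC transcript was at 185, 185, 234 and 197 CPM in the WT-D mice and at 193, 145, 191 and 178 CPM in the 3xTg-D mice. With the inhibitor it was at 160, 163, 169 and 226 CPM in WT and at 218, 169, 212 and 311 CPM in 3xTg mice. All groups overlapped, and the highest mouse, 3xTg-S mouse 4, was also the mouse with the largest share of reads on no annotated gene (15.1%). Across the 16 mice, log2 CPM of Ntrk3 correlated with this share at Pearson's r = 0.892 (permutation p = 1e-05, the smallest that 100000 resamples can give, adjusted p = 7e-05 over the 7 genes) and Spearman's rho = 0.876 (permutation p = 4e-05, adjusted p = 0.00028). It was r = 0.867 when the 2 mice farthest from the median were left out, 0.887 after group means were subtracted, and 0.582 to 0.946 within the 4 groups of 4. Among all 16475 tested genes, 414 had a positive r with the share at least as high, Ntrk3 included. Genes with an equally strong negative r were not counted. The other 6 genes gave r from -0.36 (Bdnf) to 0.35 (Sort1), with adjusted permutation p of 0.421 or more. For Bdnf, r was -0.50 after group means were subtracted, -0.68 over the 8 WT mice and -0.52 over the 8 3xTg mice. With the share as covariate, the interaction of Ntrk3 was 0.22, and its difference in 3xTg-S vs. 3xTg-D went from 0.37 to 0.15, and neither was called. Bdnf in 3xTg-S vs. WT-S was -0.44 with the same covariate (adjusted p = 0.0038), against an adjusted p of 0.104 with the choroid plexus score. Vgf in 3xTg-D vs. WT-D was -0.31 with the share and -0.41 with the score, and still called with either.

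**Figure D4:**
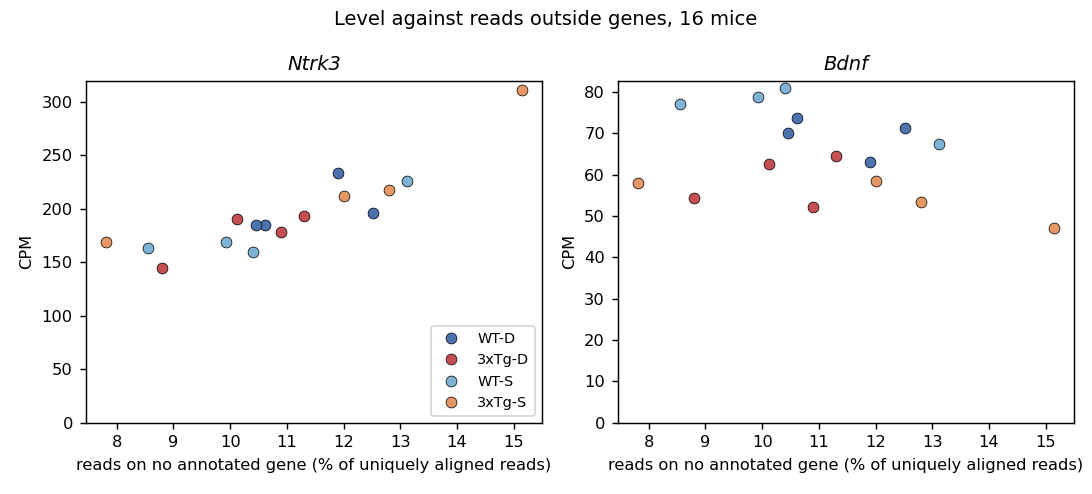
Level of Ntrk3 (left) and Bdnf (right) in CPM (y axes, from 0) against the share of reads on no annotated gene (x axes, % of uniquely aligned reads), each point a mouse, coloured by group. Ntrk3 rises with the share (r = 0.892), up to 311 CPM in the mouse at 15.1%, and Bdnf gave r = -0.36.

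Sort1, which encodes the sorting receptor of pro-BDNF, was at 652, 677, 646 and 692 CPM in the WT-D mice and at 629, 544, 635 and 658 CPM in the 3xTg-D mice. With the inhibitor it was at 635, 679, 623 and 733 CPM in WT and at 628, 678, 677 and 670 CPM in 3xTg mice. All groups overlapped, and the pairwise log2 fold changes ranged from -0.11 to 0.11. The levels of Ntrk2 in 3xTg-D mice (652, 675, 677 and 659 CPM) and 3xTg-S mice (646, 663, 694 and 646 CPM) lay among those of the WT groups. In WT-D mice Ntf3 was at 6.29, 6.63, 6.46 and 8.27 CPM, and in WT-S mice at 5.78, 6.22, 7.52 and 6.62 CPM. Ngfr in the same groups was at 1.31, 1.06, 1.15 and 1.43 CPM and at 1.22, 1.35, 1.15 and 1.19 CPM.

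Of the related genes, Ntf5, which encodes the TrkB ligand NT-4, had 0 to 6 counts per mouse and did not pass the filter. Other genes of the pathway were read from 5 further lists of genes that process, sort, transmit or follow neurotrophin signals. In 3xTg-D vs. WT-D, 1 of 24 genes for Trk adaptors and effectors was called, as higher (list median 0.03), and 0 of 14 tested for processing and sorting of proneurotrophins, 0 of 12 partners of p75 and 0 of 9 granins and dense core vesicle proteins were. At an unadjusted p under 0.05 these last counts were 3, 0 and 2 with edgeR and the same with DESeq2, which called 1, 0 and 1 of them at 0.01. The called gene was Frs2, an adaptor that couples Trk receptors to the MAP kinase pathway (log2 fold change 0.29, SE 0.05, adjusted p = 0.0130), with 72.4 to 77.7 CPM in the WT-D group and 88.4 to 96.4 CPM in the 3xTg-D group. Of 18 activity-regulated and CREB pathway genes, a class that includes known targets of neuronal activity, edgeR called 0 as higher and 3 as lower, with a list median of -0.32. Over all tested genes, edgeR called 4.91% in this comparison, 2.47% as lower. DESeq2 called 5 of the 18, and 8 with edgeR and 9 with DESeq2 had an unadjusted p under 0.05. For these counts no share of all tested genes is given, so they cannot be set against it. The 3 called by edgeR were Nr4a1 (log2 fold change -0.78, SE 0.18), Nr4a2 (-0.39, SE 0.10) and Crem (-0.32, SE 0.09), none of which passed adjustment (adjusted p = 0.0589, 0.0894 and 0.123). Nr4a1 and Nr4a2 encode orphan nuclear receptors of the immediate early class, and Crem encodes a CREB-related factor. For Nr4a1, the WT-D mice were at 50.7, 30.8, 31.7 and 44.2 CPM and the 3xTg-D mice at 27.2, 18.4, 25.5 and 20.8 CPM, without overlap. Nr4a2 did not overlap either, ranging from 58.2 to 70.4 CPM in WT-D mice and from 41.9 to 57.8 CPM in 3xTg-D mice.

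With the inhibitor in both groups (3xTg-S vs. WT-S), edgeR called 0 of the 77 genes tested from these 5 lists (5 at an unadjusted p under 0.05) and DESeq2 called 2, and the median of the activity-regulated list was 0.01. Over all tested genes, edgeR called 4.26% in this comparison. Nr4a2 was called as higher in 3xTg-S vs. 3xTg-D (log2 fold change 0.34, SE 0.10, adjusted p = 0.722), at 57.9 to 67.8 CPM with and 41.9 to 57.8 CPM without the inhibitor. It was the only 1 of the 77 genes that edgeR called there, beside 0.904% of all tested genes. The median of the activity-regulated list was 0.14. The interaction also called Nr4a2 (0.44, SE 0.13, adjusted p = 0.788), again as the only 1 of the 77, beside 0.595% of all tested genes. Neither call passed adjustment. Bdnf, itself an activity-regulated gene, had a log2 fold change of -0.11 in 3xTg-S vs. 3xTg-D. It was not called, like every gene of that list except Nr4a2. In 3xTg-S vs. WT-D, DESeq2 called 4 of the 77 genes and edgeR 1, Sorcs1, which encodes a sortilin-related sorting receptor (log2 fold change -0.33, SE 0.07, adjusted p = 0.0546), with 15.2 to 16.5 CPM in 3xTg-S and 18.9 to 21.5 CPM in WT-D mice. Of all tested genes, edgeR called 5.69% there. In WT-S vs. WT-D, both tools called 0 of the 77 genes, with 2 at an unadjusted p under 0.05 with edgeR and 3 with DESeq2. There edgeR called 0.188% of all tested genes. Averaged over infusions, both tools called 5 of the 77 genes, a share no higher than the 7.93% of all tested genes that edgeR called. With edgeR, Frs2 was higher (0.23, adjusted p = 0.0073), and Sorcs1 (-0.33, adjusted p = 0.0447) and Scg2 (-0.22, adjusted p = 0.0478) were lower in 3xTg mice. Nr4a1 (-0.46, adjusted p = 0.0505) and Crem (-0.23, adjusted p = 0.105) were also called as lower and did not pass adjustment. Scg2 encodes a granin stored in dense core vesicles like VGF, and it was the only 1 of 9 genes of its list to be called, with Vgf itself not among them.

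**Figure D5:**
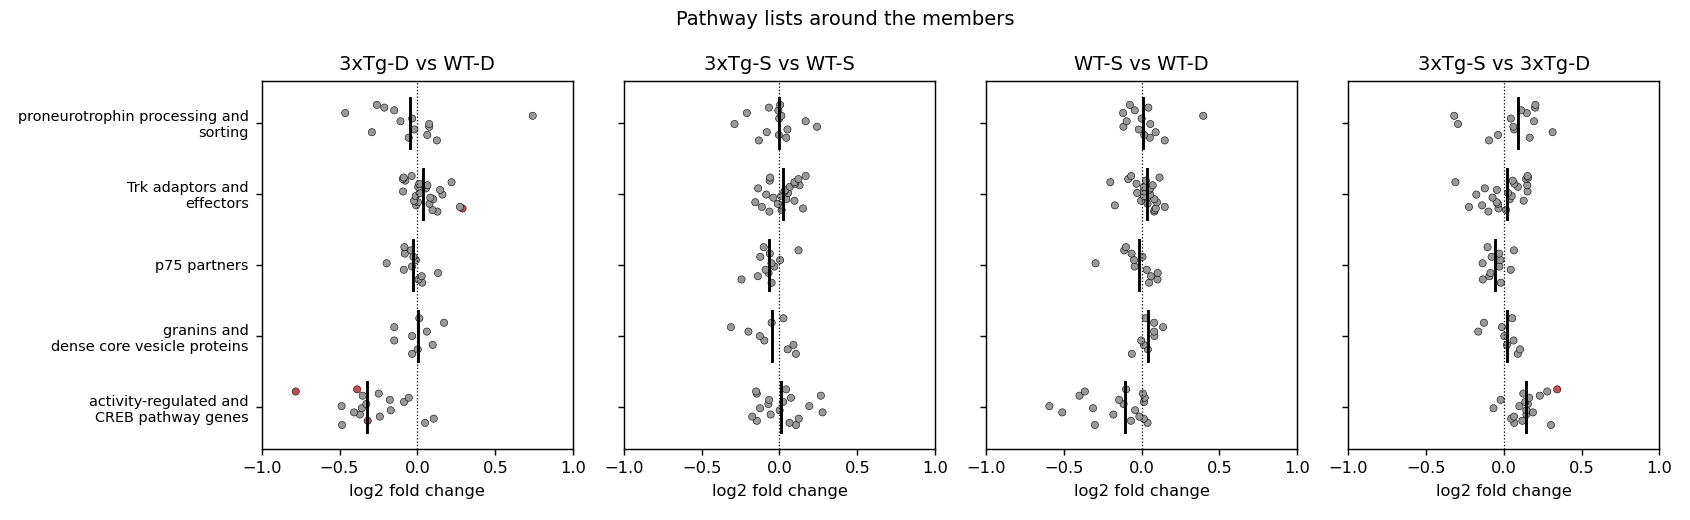
Log2 fold change (x axis) of the tested genes of 5 pathway lists (rows) in 4 comparisons, each point a gene, red where called at p of 0.01 or less, with the list median as a black bar. The median of the activity-regulated list lies at -0.32 in 3xTg-D vs. WT-D and at 0.01 in 3xTg-S vs. WT-S, and the other medians lie between -0.11 and 0.14.

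The genes whose log2 CPM followed each of the 7 most closely across the 16 mice are given as a description, since the mice share genotype, infusion and library properties. Bdnf was followed by Cox7c (r = 0.898), Mmut (0.887) and Arpc3 (0.886), with r = 0.612, 0.758 and 0.770 after group means were subtracted. For Vgf the closest were Gm20075 (0.873), Coro1c (0.870) and St8sia5 (0.863), with 0.690, 0.743 and 0.773 within groups. Ntrk3 was followed by Zbtb20 (0.944), Tnrc6b (0.939) and Cacna1g (0.938), and these values were 0.958, 0.935 and 0.920 within groups. Sort1 went with Ptpn3 (0.934), Mical2 (0.918) and Kcnj3 (0.910), and Ntrk2 with Zfp213 (0.875), Oxsm (0.842) and Timp4 (0.789). Ntf3 went with Shisa8 (0.782), Rps27rt (0.759) and Gask1b (0.755), and Ngfr with Plp2 (0.869), C1rl (0.836) and Aldh3b1 (0.814). At r of 0.8 or more, Ntrk3 had 417 of 14240 protein-coding genes beside it, Bdnf 64, Sort1 49, Vgf 18, Ngfr 4, Ntrk2 2 and Ntf3 0. Among the 7 genes themselves, Bdnf and Vgf had r = 0.687 over the 16 mice and 0.173 after group means were subtracted, so that they shared the difference between groups more than the variation within them. Ligands and their receptors were weakly related, with r = 0.365 for Bdnf and Ntrk2 and -0.43 for Ntf3 and Ntrk3 (0.121 and -0.31 within groups).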

How the data were processed

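The authors trimmed single-end hippocampal reads with Trimmomatic 0.35, aligned them with STAR 2.5.1b (GRCm38, Gencode M23) and deposited raw counts of reads per gene. The strand setting, and whether duplicate molecules were collapsed, are not given in the sources used here. Genes were filtered with filterByExpr (minimum count 10, minimum total 15) and normalized by TMM in edgeR 4.0.16 (R 4.3.3). Pairs of groups were compared by the two-sided quasi-likelihood test of edgeR, with Benjamini-Hochberg adjustment over the 16475 tested genes. Shares of all tested genes refer to edgeR, and none is given for DESeq2 or for an unadjusted p under 0.05. Intervals are 95% intervals from the same edgeR test, log2 CPM has a prior count of 2, and exon lengths came from Gencode M21. The fits were tested on simulated counts. Mice are the replicates, and separate litters are not stated. The replicate numbers come from the titles. Every mouse correlated best with its own number only in WT-S vs. WT-D (correlation of same-numbered deviations 0.114 to 0.340, 4 of 4), where the replicate block changed no call. In 3xTg-S vs. WT-S this held for 3 of 4 mice (mean correlation 0.241), and the block added calls there. Replicates were not copies (chi-square per degree of freedom 3.91 to 47.4). The 7 genes and all lists were chosen with earlier results of these data known. Of each list, at most 4 called genes per comparison are named, by smallest p, and for each of the 7 genes the 3 protein-coding genes with the highest r. Alternatives were DESeq2 1.42.0, median-ratio size factors, 2 other count filters, 1 fit of all mice, a replicate block, 2 covariates, the adjusted threshold and each mouse left out. Some items of the lists are not reported here.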

Additional observations from a re-analysis of the deposited data

Results flagged for a closer look

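Of the 28 sets of 4 mice (7 genes in 4 groups), 3 held a mouse whose gap to the nearest other mouse took up most of the group's range, and chance alone flags about 1 set in 20. Ntf3 in WT-D was flagged by mouse 4 at 8.27 CPM, beside 6.29 to 6.63 CPM in the other mice (gap over range 0.831). Ntrk3 in WT-S was flagged by mouse 4 at 226 CPM, beside 160 to 169 CPM (gap over range 0.871). That mouse had the highest share of reads outside genes of its group (13.1%). Sort1 in 3xTg-S was flagged by mouse 1 at 628 CPM, beside 670 to 678 CPM (gap over range 0.837).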

How the results depend on the processing

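Of 889 repeats of the fits for single genes, 860 had the same outcome as the report, called or not called. Most of these are genes that were not called and stayed so, so the 860 do not measure how firm the calls are. A call was gained in 22 repeats and lost in 7, and 0 reversed a called value. The adjusted threshold is not among these repeats. In 3xTg-D vs. WT-D, 2 genes in place of 1 were called with median-ratio size factors, DESeq2, no filter or at least 10 counts in every mouse, and 0 at the adjusted threshold. In 3xTg-S vs. WT-D, 1 gene in place of 2 was called with all 16 mice in 1 fit or the choroid plexus score as covariate, and 0 at the adjusted threshold. In 3xTg-S vs. WT-S, 2 genes in place of 1 were called with DESeq2, no filter, at least 10 counts in every mouse or all 16 mice in 1 fit. Leaving out each mouse gave 1 to 2 calls in each of these 3 comparisons, 0 to 1 in 3xTg-S vs. 3xTg-D, WT-S vs. WT-D and the interaction, and 2 in the averaged comparison. The single call was Ntrk3 in each case, without 3xTg-S mouse 2, without WT-S mouse 4, and without either of them in the interaction. The cause was not tested.

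The mean correlation of same-numbered mice was 0.217 in WT-S vs. WT-D. It was 0.041 in 3xTg-D vs. WT-D, 0.176 in 3xTg-S vs. WT-D, 0.213 in 3xTg-S vs. 3xTg-D and 0.241 in 3xTg-S vs. WT-S. Every mouse correlated best with its own number only in WT-S vs. WT-D. Whether the numbers pair mice in the other comparisons is not known. With the replicate block, 3 genes in place of 1 were called in 3xTg-S vs. WT-S, and 1 in place of 0 in 3xTg-S vs. 3xTg-D and in the interaction. The added calls were Ntrk3 (log2 fold changes 0.31, 0.34 and 0.51) and, in 3xTg-S vs. WT-S, Vgf (-0.37). Ngfr rests on 10 to 35 counts per mouse, which limits its precision.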
